A study of Schizosaccharomyces pombe with 6 samples.

Results

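SPBC530.02 and mfs2 (SPAC11D3.05) are 2 transporter genes of Schizosaccharomyces pombe, the fission yeast, over which small RNA from Ago1 pull-downs was unusually abundant. They are 2 of 6878 annotated features in the count files and were chosen by their read numbers, as shares of assigned and aligned reads, so their levels below are a description. RefSeq annotates mfs2, on chromosome I, as a membrane transporter of the MFS (major facilitator superfamily), and SPBC530.02, on chromosome II, only as a transporter. Both genes lie on the plus strand. The study holds 6 libraries of 1 wild-type strain (975 h+), 3 from growing cells (0h) and 3 from cells kept for 24 h in EMM minimal medium without nitrogen (24h). The growth medium had been EMM with adenine, histidine, leucine, lysine and uracil, and RNA of 20 to 30 nucleotides was taken from beads that bind the FLAG peptide. The labels named no tagged Ago1 allele and no pull-down from untagged cells, so that the RNA was bound to Ago1 rests on the labels.

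Major facilitator proteins are single-chain membrane carriers that move sugars, amino acids, drugs, phosphate and other small solutes across a membrane along or against their gradients. In fission yeast the best known Argonaute-bound small RNAs come from noncoding transcripts of the pericentromeric repeats, which Dicer cuts from double-stranded RNA. Loaded on Ago1, these guide the histone methyltransferase Clr4 to the repeats and keep heterochromatin in place. The comparison asked how far reads over the transporter loci stood against those of 5 such pericentromeric RNAs (SPNCRNA.231, SPNCRNA.232, SPNCRNA.234, SPNCRNA.359 and SPNCRNA.373) before and during starvation.

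Libraries held 48040 to 145861 reads assigned to features at 0h and 54393 to 758789 at 24h. Low mapping quality had removed 90.3 to 96.4% of all aligned reads, and assigned reads were 0.495 to 0.601% of aligned reads at 0h and 2.26 to 5.39% at 24h. Shares of assigned and of aligned reads can therefore differ in direction, and both are given. The starvation genes isp4, isp7, ste11 and mei2 were all higher at 24h (log2 fold changes of 2.78 to 4.53, adjusted p of 0.000494 to 0.00314, by the edgeR quasi-likelihood F test with p-values adjusted after Benjamini and Hochberg). Each of these genes had enough reads to be tested in every library only at 24h. The direction called is thus the one that let them be tested, and their p-values are descriptions. The labels do not say whether replicates were separate cultures, so p-values measure the spread between these libraries.

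SPBC530.02 was the protein-coding feature with the most reads in each of the 3 growing-cell libraries, and mfs2 took that place in each of the 3 starved libraries. SPBC530.02 had 3375, 4034 and 3355 reads at 0h, which were 7.03, 3.58 and 2.30% of assigned reads. At 24h it had 4867, 4555 and 63053 reads, or 8.95, 1.82 and 8.31%. The groups overlapped, since 24h replicate 2 lay below every 0h library while the other two lay above. The mean share was 4.30% ± 2.44 before and 6.36% ± 3.94 during starvation (SD, n = 3), with a two-sided exact permutation p = 0.50. The mean log2 difference was 0.41, and it was 1.16 without 24h replicate 2 and -0.24 when both genes and the 5 pericentromeric RNAs were left out of the denominator.

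Reads over mfs2 numbered 585, 1265 and 994 at 0h, which were 1.22, 1.12 and 0.681% of assigned reads. At 24h they numbered 5385, 5287 and 92980, or 9.90, 2.11 and 12.3%. Every 24h library lay above every 0h library, with 24h replicate 2 again the lowest of its group. The mean share was 1.01% ± 0.286 at 0h and 8.09% ± 5.31 at 24h (SD, n = 3), 8.03-fold higher, with an exact permutation p = 0.10, the smallest that 3 against 3 libraries allow. Counting error was small beside this spread: the widest Wilson 95% interval, relative to its value, was 1.12 to 1.32% for mfs2 in 0h replicate 1. As mfs2 was chosen by its read numbers, which ranked highest at 24h, part of its difference between the times may come with the choice. Its p-values here and below are descriptions for that reason.

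The 5 pericentromeric RNAs went the other way. Their part of assigned reads was 49.4, 40.6 and 34.9% in growing cells and 3.63, 0.691 and 3.69% in starved cells, with 24h replicate 2 lowest once more. All 5 of 5 fell in the test across features (log2 fold changes of -3.69 to -5.65, adjusted p of 0.00301 to 0.0228 in edgeR), where 12.8% of all 1716 tested features were lower at 24h. The count was 3 without 0h replicate 2, and 2 when libraries were scaled to aligned reads. The RNAs were grouped with earlier results of these data known, so this count and their p-values here and below are descriptions.

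**Figure D1:**
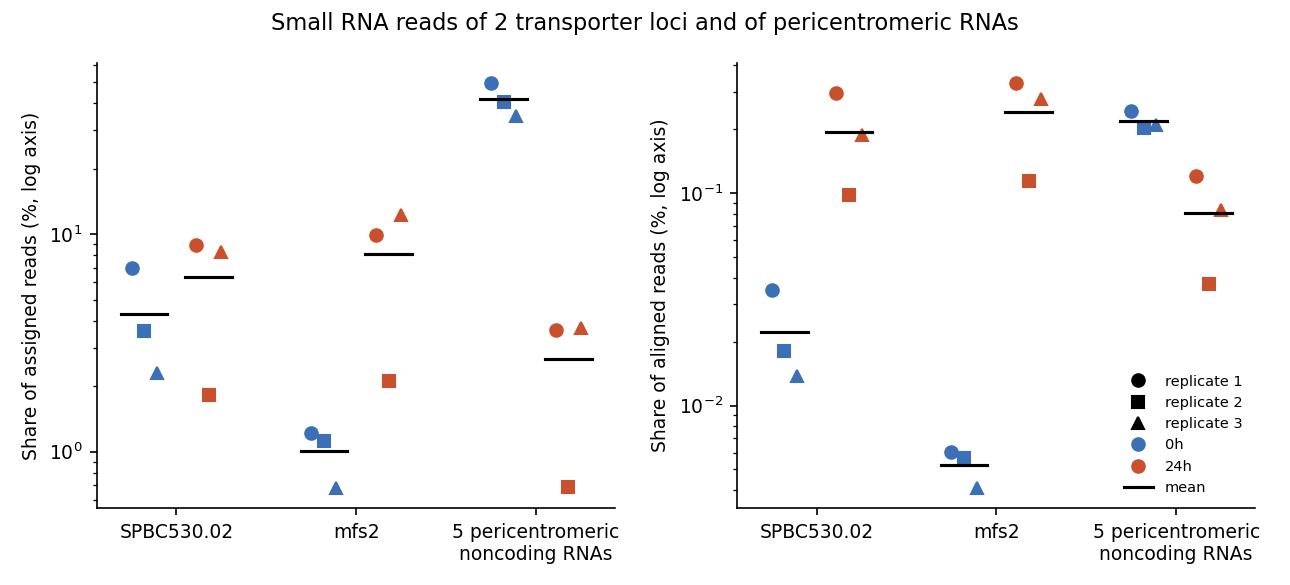
Share of assigned reads (left) and of aligned reads (right) in percent, on log axes, for SPBC530.02, mfs2 and the sum of 5 pericentromeric noncoding RNAs. Symbols are libraries and bars are means of 3. At 24h replicate 2 is the lowest starved library in every set, and on both scales the mfs2 points of the times do not overlap.

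Per aligned read both loci were higher in every starved library. Most features rose on this scale, where 1611 of 1716 tested were called higher at 24h (edgeR, adjusted p below 0.05). The median log2 fold change was 3.55, above the 3.13 of SPBC530.02 and below the 5.51 of mfs2. SPBC530.02 took 0.0348, 0.0180 and 0.0138% of aligned reads in growing cells and 0.297, 0.0982 and 0.188% in starved cells. Its means of 0.0222% ± 0.0111 and 0.195% ± 0.0998 (SD, n = 3) stood 8.76-fold apart with no overlap (exact permutation p = 0.10). The share of mfs2 was 0.00603, 0.00563 and 0.00409% before and 0.329, 0.114 and 0.277% during starvation. Its means of 0.00525% ± 0.00102 and 0.240% ± 0.112 (SD, n = 3) stood 45.7-fold apart, again with no overlap (exact permutation p = 0.10). The 5 pericentromeric RNAs had 0.245, 0.204 and 0.210%, then 0.121, 0.0372 and 0.0834%, with means 2.73-fold lower in starved cells (exact permutation p = 0.10). At 0h the summed RNAs were thus above either gene in every library, and at 24h each gene was above the summed RNAs in every library. Reads of low mapping quality carry no feature here, so how many of them came from the pericentromeric repeats cannot be told. This comparison and the ratios below cover only the reads that were kept.

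In the fit across all features, neither gene passed the test between times. SPBC530.02 had a log2 fold change of -0.11 (SE 0.88, adjusted p = 0.939) and mfs2 one of 2.38 (SE 0.87, adjusted p = 0.0665, edgeR with TMM scaling and Benjamini-Hochberg adjustment). TMM sets the typical feature near no change (median -0.02). Scaled to library totals the median was 0.69, SPBC530.02 was at 0.56 and mfs2 at 3.01 (adjusted p = 0.591 and 0.00749). Scaled to aligned reads the median was 3.55, and SPBC530.02 at 3.13 lay below it while mfs2 at 5.51 lay above (adjusted p = 0.000163 and 1.97e-08, edgeR). Without 24h replicate 2, mfs2 was at 2.88 and passed (adjusted p = 0.00476), and SPBC530.02 was at 0.37 (adjusted p = 0.691). SPBC530.02 was also positive, at 0.57, without 0h replicate 1.

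A ratio of reads within a library needs no scaling, and it separated the times clearly. For each read of SPBC530.02 there were 0.173, 0.314 and 0.296 reads of mfs2 at 0h, and 1.11, 1.16 and 1.47 at 24h. SPBC530.02 was thus the higher of the pair in every growing library and mfs2 in every starved library. The mean ratio was 0.261 ± 0.0765 at 0h and 1.25 ± 0.199 at 24h (SD, n = 3). Between geometric means it was 4.90-fold higher, a log2 difference of 2.29 with an exact permutation p = 0.10, and 2.02 to 2.45 without each library in turn. As mfs2 drew notice by its rank at 24h, part of this difference may come with the choice.

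Set against the summed 5 pericentromeric RNAs, both loci went from a small part to a multiple. For each read of the RNAs, SPBC530.02 had 0.142, 0.0883 and 0.0660 reads at 0h and 2.47, 2.64 and 2.25 at 24h. The log2 difference was 4.70, which is 26.1-fold between geometric means, and with single libraries left out it was between 4.45 and 5.00 (exact permutation p = 0.10). For mfs2 the ratios were 0.0247, 0.0277 and 0.0195 at 0h and 2.73, 3.06 and 3.32 at 24h. Its log2 difference was 7.00, which is 128-fold, with a range of 6.86 to 7.11 (exact permutation p = 0.10). SPBC530.02 was also chosen by its read numbers, and the RNAs were grouped with earlier results known. Part of both differences may thus come with the choice, and all p-values of these genes and RNAs are descriptions. Against each of the 5 RNAs alone, the lowest 24h ratio also exceeded the highest 0h ratio for both genes. The narrowest gap was for SPBC530.02 against SPNCRNA.359, with 0.777, 0.312 and 0.135 at 0h and 5.68, 5.98 and 4.00 at 24h. Against single RNAs SPBC530.02 was not always the lower at 0h. Its 0h ratios were 1.31, 1.14 and 1.59 to SPNCRNA.231, 1.55, 1.19 and 0.916 to SPNCRNA.234, and 2.55, 0.935 and 0.935 to SPNCRNA.373. It lay below SPNCRNA.232 and SPNCRNA.359 in every 0h library, and mfs2 lay below each of the 5 RNAs.

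**Figure D2:**
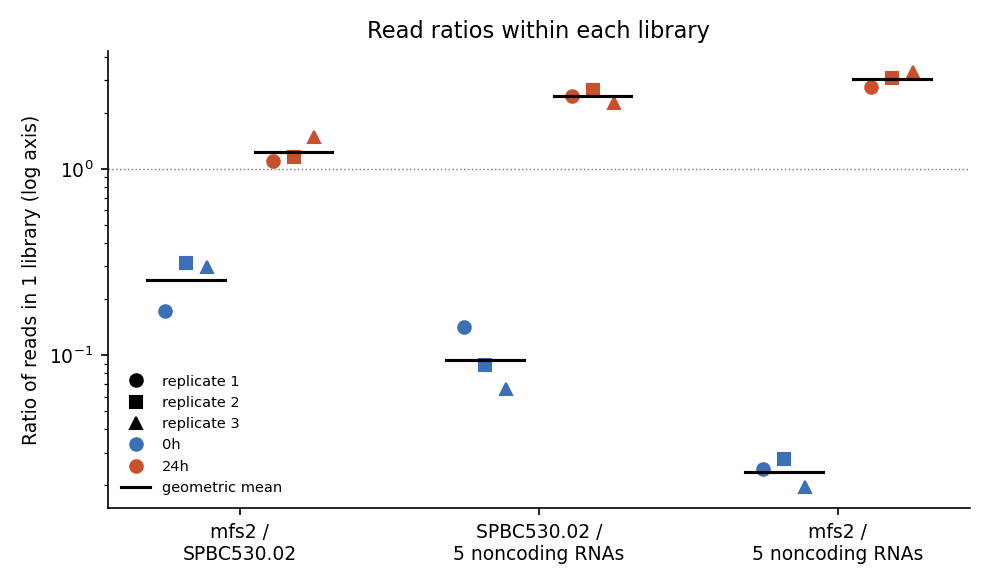
Ratio of reads in the same library, on a log axis, for mfs2 to SPBC530.02 and for each gene to the summed 5 pericentromeric noncoding RNAs. Symbols are libraries, bars are geometric means of 3, and the dotted line marks equal reads. All ratios lie below 1 at 0h and above 1 at 24h.

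These ratios were nearly constant over the starved libraries, although shares varied several-fold. From the lowest to the highest 24h library the share of assigned reads spanned 4.91-fold for SPBC530.02, 5.79-fold for mfs2 and 5.34-fold for the 5 RNAs. The ratio to the RNAs spanned 1.17-fold for SPBC530.02 and 1.22-fold for mfs2. Its SD over the 3 libraries, on the log2 scale, was 0.11 for SPBC530.02 and 0.14 for mfs2. Apart from the 5 RNAs, 56 features had at least 100 reads in each 24h library, and the genes had the smallest and second smallest SD among them. The next were gld1, a glycerol dehydrogenase gene, at 0.54 and sum2, annotated as a translation initiation inhibitor, at 0.59, and the median was 1.70. Abundant structural and housekeeping features did not keep such a ratio. It had an SD of 1.70 for srp7, the RNA of the signal recognition particle, and 1.88 for the glycolytic gene tdh1. This measure was chosen after the values had been seen, and each SD rests on 3 libraries. Against single RNAs the span at 24h ran from 1.18-fold (mfs2 to SPNCRNA.359) to 3.92-fold (mfs2 to SPNCRNA.234).

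**Figure D3:**
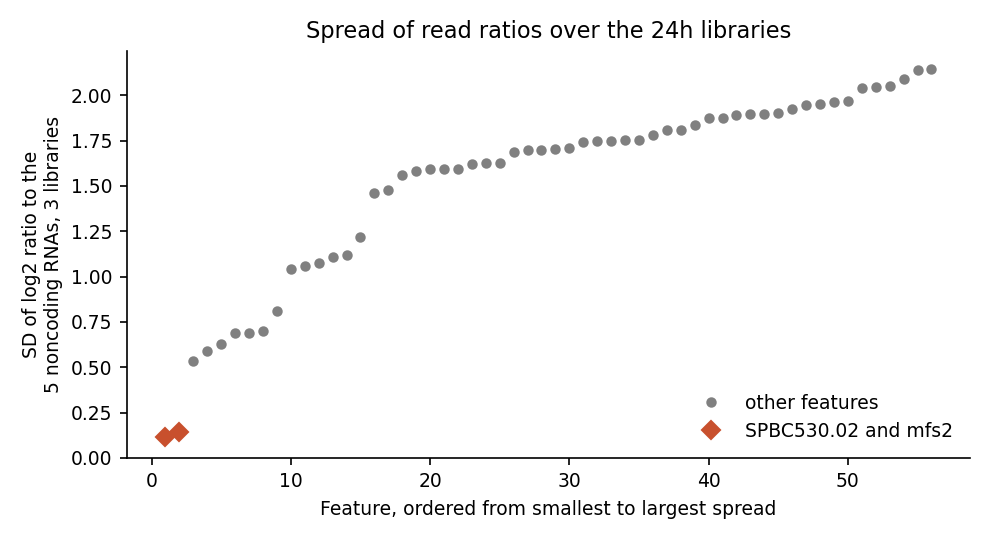
SD, over the 3 starved libraries, of the log2 ratio of a feature's reads to those of the 5 pericentromeric noncoding RNAs, for 56 features with at least 100 reads in each. Diamonds mark SPBC530.02 (0.11) and mfs2 (0.14), and grey points are the other features, which begin at 0.54.

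At 0h the ratio to the RNAs was less even for SPBC530.02. Its SD on the log2 scale was 0.56 at 0h, and that of mfs2 was 0.26. Among 11 features with a mean share of at least 0.5%, the 5 RNAs left out, mfs2 had the smallest SD at 0h and SPBC530.02 the fifth smallest, and srp7 had 0.42.

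Per coding length SPBC530.02 stood above every other protein-coding feature at 0h, and both genes stood above all others at 24h, while at 0h mfs2 lay below tdh1. Reads per kb of coding length, scaled to RPKM over assigned reads, were 26463 ± 15027 at 0h and 39114 ± 24248 at 24h for SPBC530.02 (SD, n = 3), whose coding length is 1626 bp. For mfs2, with 1641 bp, they were 6140 ± 1745 and 49297 ± 32336. The median coding feature was at 24.8 and 38.9, and tdh1, the highest coding feature apart from the pair, was at 8356 and 8768. On this scale SPBC530.02 ranked 1 of 5107 at 0h and 2 at 24h, and mfs2 ranked 4 and 1. Among all features, by mean share of assigned reads, SPBC530.02 ranked 3 at 0h and 2 at 24h, and mfs2 ranked 9 and 1. The features next in order at 24h were a glutamine tRNA (2.74% ± 0.974) and srp7 (2.35% ± 0.585). The means of mfs2 and SPBC530.02 at 24h differed by less than their SDs. In growing cells mfs2 stood between srp7 (1.78% ± 0.210) and the mitochondrial SPMIT.01 (0.871% ± 0.707), and its mean differed from that of SPMIT.01 by less than the SDs.

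The share of protein-coding reads was higher at 24h with the pair counted and with it left out. Of protein-coding reads they held 19.7, 10.1 and 6.56% at 0h and 22.7, 4.65 and 25.5% at 24h. Protein-coding features took 44.7% ± 2.54 of assigned reads before and 82.8% ± 2.08 during starvation. With both genes taken out of the count and of the total the shares were 41.5% ± 4.22 and 79.6% ± 4.27 (SD, n = 3, exact permutation p = 0.10 for each). Over the same times the 5 pericentromeric RNAs went from 41.6% ± 7.31 to 2.67% ± 1.71 of assigned reads (SD, n = 3). Shares of 1 total depend on each other, so a rise in coding reads cannot be told apart from this fall.

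The annotated features next to either gene had few reads. Next to SPBC530.02, which had 10764 reads over the 3 0h libraries and 72475 over the 3 24h libraries, gyp1, a GTPase-activating protein gene, had 19 and 69. The chaperone regulator gene bag102 had 6 and 38 reads, and sim3, whose product brings the centromeric histone CENP-A to chromatin, had 4 and 33. The secretory gene ksh1 and SPNCRNA.327 had 0 reads in all 6 libraries, which allows a share of up to 0.000219% of the pooled assigned reads. No feature of the RefSeq annotation overlaps SPBC530.02.

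Around mfs2, with 2844 and 103652 reads, the highest neighbours were SPAC11D3.06, a MatE family transporter gene, with 44 reads at 0h, and SPAC11D3.08c, an amino-acid permease gene, with 188 at 24h. SPAC11D3.06 had 14, 17 and 13 reads at 0h and 5, 3 and 33 at 24h, and fell by 2.68 on the log2 scale (SE 0.68, adjusted p = 0.0156 in edgeR). It did not pass without 0h replicate 2 (adjusted p = 0.0576) and was at 0.53 when scaled to aligned reads. SPAC11D3.08c had 4, 4 and 4 reads at 0h and 12, 72 and 104 at 24h, a log2 change of 1.60 (SE 0.48, adjusted p = 0.0312 in edgeR). That call was lost with 0h replicate 2 left out (adjusted p = 0.132), likewise for 0h replicate 3 (0.167), for 24h replicate 1 (0.0528) and for 24h replicate 2 (0.0634). DESeq2 gave an adjusted p of 0.0916. Each of these 2 neighbours had enough reads to be tested in all 3 libraries of only 1 time, SPAC11D3.06 at 0h and SPAC11D3.08c at 24h. The direction called is thus the one that let it be tested, and both calls are descriptions. Next after mfs2 in chromosomal order comes toe4, a transcription factor gene on the other strand that overlaps SPAC11D3.06. The log2 fold change of toe4 was -0.21 (SE 0.46), a sign that flips with library totals (0.44), aligned reads (3.12), no filter (0.11) and without 0h replicate 1 (0.21). The RefSeq annotation places 1 noncoding RNA, SPNCRNA.2054, inside mfs2 on the opposite strand. It has no row in the files used here, and the strand setting of the counting was not given, so reads of that RNA could lie in the mfs2 count or in no feature.

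**Figure D4:**
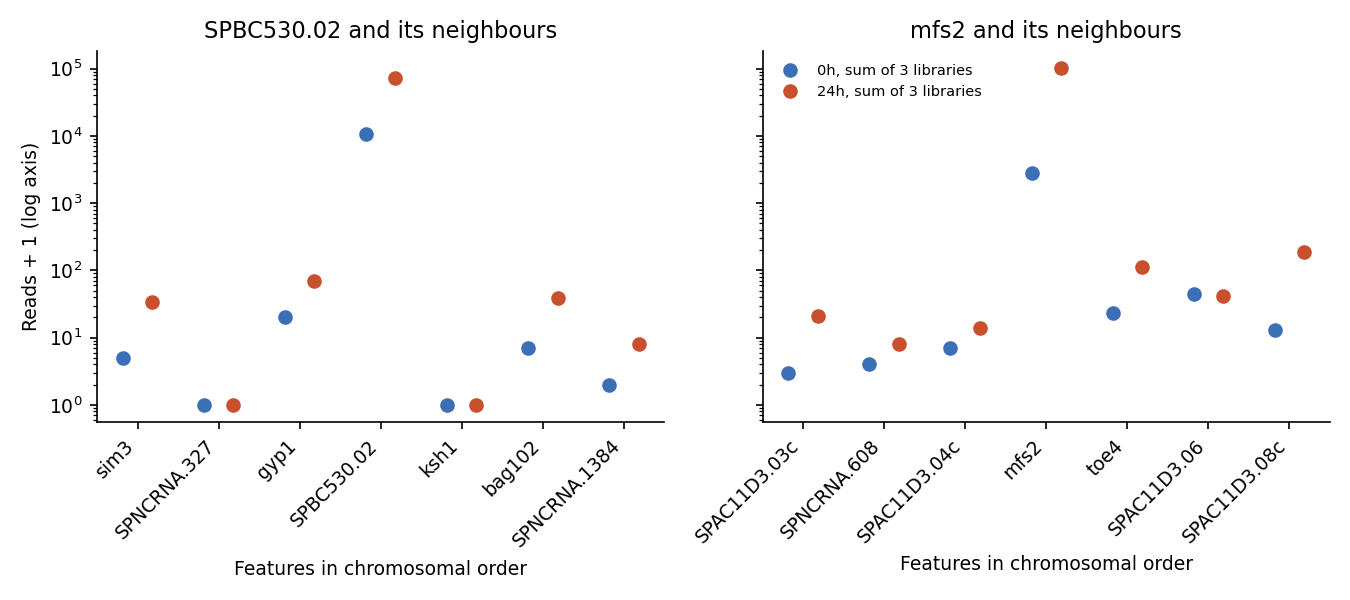
Reads plus 1, on a log axis, summed over 3 libraries at each time, for SPBC530.02 (left), mfs2 (right) and the 3 annotated features on either side in chromosomal order. Both genes rise by orders of magnitude above every neighbour shown, the highest of which has 188 reads.

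Over 117 protein-coding features with at least 1000 reads in all, the ratio of a gene's reads to its highest neighbour (with 1 read added) had a median of 4.39 at 0h and 8.53 at 24h. It was 538 and 1035 for SPBC530.02 and 63.2 and 548 for mfs2, ranking 2 and 1, and 6 and 2. The highest other gene was tlh2, a subtelomeric RecQ-type helicase gene with near-identical copies, at 730 and 469. Counts per feature hold no positions, so whether the reads cover a whole gene or a short stretch of it was not analysed here.

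Several other transporters of the family were higher at 24h, from far lower counts. A list of 26 features was read, of which 16 had enough counts to be tested. Of these 7 rose and 2 fell, where 13.1% of all tested features were higher and 12.8% lower (edgeR, at an adjusted p of 0.05). The median log2 fold change was 1.22, or 1.13 without mfs2, against -0.02 over all tested features. The filter needed enough reads in at least 3 libraries. Of the rises, tgp1, ght1, ght3, mfs1 and ght2 had that in all 3 libraries only at 24h. Of the falls, str1 had it only at 0h. Their calls and the list median thus lean on the time that let them be tested, and are descriptions. The same filter applied to all features, and without it 9 of the list were called higher and 3 lower (edgeR). Scaled to aligned reads 15 of the 16 were higher and none lower, and with library totals none was lower. The rises numbered 2 when 0h replicate 2 was left out, and 4 when either other 0h library was. With 0h replicate 3, 24h replicate 1 or 24h replicate 3 left out singly, 1 fall was called.

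Phosphate carriers were among the rises. The glycerophosphodiester transporter gene tgp1 had 0, 2 and 1 reads at 0h and 37, 105 and 110 at 24h. Pooled per assigned read, that is 24.2 times more (95% interval from counting error, 8.19 to 118). The phosphate transporter gene pho84 had 20, 72 and 96 reads at 0h and 137, 1171 and 1398 at 24h, a log2 change of 1.61 (SE 0.42). Its adjusted p was 0.0181 and that of tgp1 0.00367 (edgeR, Benjamini-Hochberg). The call of tgp1 held in every alternative that tested it. That of pho84 was lost without 0h replicate 1 (adjusted p = 0.0618) or 0h replicate 2 (0.0937).

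Among the hexose carriers ght1 (2.72, SE 0.84), the gluconate symporter gene ght3 (2.58, SE 0.71), ght8 (1.37, SE 0.40) and ght2 (1.13, SE 0.35) rose, with adjusted p of 0.0216 to 0.0353 in edgeR. Each of these 4 calls was lost without 0h replicate 2 (adjusted p of 0.101 to 0.154) and without at least 1 other library. The most abundant of them, ght5, had 50, 172 and 271 reads at 0h and 324, 1240 and 2348 at 24h and did not pass (0.93, SE 0.45, adjusted p = 0.153), nor did ght4 (1.31, SE 0.51, adjusted p = 0.0801). With library totals ght5 (adjusted p = 0.0241) and ght4 (0.00456) passed. Even ght5, next after mfs2 in the list, had a mean of 1877 ± 405 CPM at 0h and 3597 ± 1085 at 24h, against 13149 ± 4576 and 68612 ± 50444 for mfs2 (TMM-scaled, SD, n = 3).

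The namesake mfs1 rose, from 5, 10 and 5 reads to 34, 246 and 839 (3.01, SE 0.50, adjusted p = 0.00262 in edgeR), and kept its call in every alternative. The spermidine family gene mfs3 was at -0.22 (SE 0.44), or 0.53 with library totals, and the inositol carrier gene itr2 at 0.24 (SE 0.33), and neither passed. The biotin (vitamin H) transporter gene vht1 fell by 1.57 (SE 0.34, adjusted p = 0.00838) and the siderophore-iron transporter gene str1 by 2.47 (SE 0.70, adjusted p = 0.0237) on the log2 scale (edgeR, Benjamini-Hochberg). In str1 most 0h reads lay in replicate 3, with 63 of 77, and without that library it did not pass (-1.23, adjusted p = 0.276), nor without 24h replicate 1 (0.110) or 24h replicate 3 (0.0682). Both falls are relative to the typical feature: per aligned read vht1 was at 2.08 and str1 at 1.46, and with library totals neither passed. The gene SPBPB2B2.16c, whose RefSeq product text is that of mfs2, and ght7 had 0 reads in every library. Reads of low mapping quality carry no feature, so these counts of 0 cover only the reads that were kept.

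**Figure D5:**
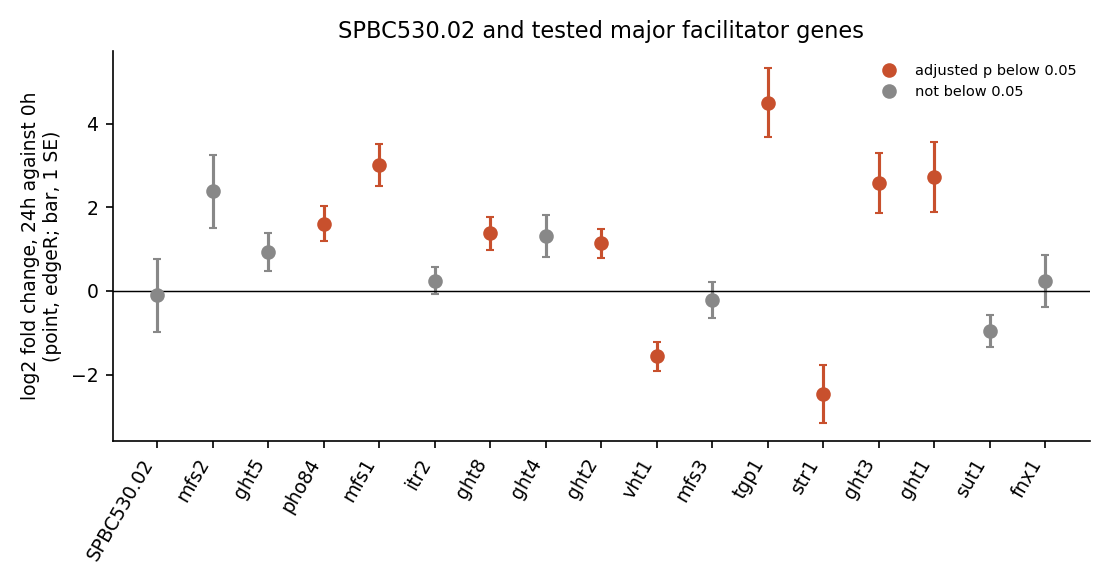
Log2 fold change of 24h against 0h (points, edgeR with TMM scaling; bars, 1 SE) for SPBC530.02 and the 16 tested genes of the major facilitator list, ordered by mean CPM from mfs2 on. Filled orange points passed an adjusted p of 0.05: 7 above 0 and 2 below, with SPBC530.02 at -0.11 and mfs2 at 2.38 not passing.

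Among all 202 protein-coding features that RefSeq annotates as a transporter, symporter, antiporter or permease, a list drawn up after the values had been seen, the pair held more than 50% of reads in every library but 24h replicate 2. Its part was 83.8, 72.2 and 60.1% of those reads at 0h and 78.0, 38.6 and 79.3% at 24h. The other 200 made up 4.57% ± 0.236 of the remaining protein-coding reads before and 8.31% ± 0.588 during starvation (SD, n = 3), with no overlap (exact permutation p = 0.10). The next in total reads was SPAC2G11.09, a calcium transporter gene. It had 59, 91 and 150 reads at 0h and 186, 216 and 6688 at 24h, so that its 24h reads lay mostly in replicate 3.

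The features whose log2(CPM + 1) followed each gene best over the 6 libraries were of much lower abundance. Of 1274 others with a mean of at least 100 CPM, the nearest to SPBC530.02 were the ribosome biogenesis gene SPAC1B9.03c (Pearson r = 0.97), tcb2, which tethers the endoplasmic reticulum to the plasma membrane (0.91), the dehydrogenase gene SPACUNK4.17 (0.90), the autophagy gene atg24 (0.89) and SPNCRNA.827 (0.89). SPAC1B9.03c had 23, 18 and 14 reads at 0h and 17, 18 and 390 at 24h. The nearest to mfs2 were SPCC24B10.06 (0.93), SPBC609.01 of the Dis3-like exonuclease family (0.93), the citrate synthase gene cit1 (0.93), ght3 (0.90) and rst2 (0.89), a transcription factor gene of the glucose starvation response. SPBC530.02 and mfs2 had r = 0.57 with each other, which ranked 90 for SPBC530.02 and 239 for mfs2. All these values share the 6 libraries and their scaling factors, and they are descriptions of 6 points.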

How the data were processed

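Raw counts were deposited by the authors as whole reads per annotated transcript ID, 1 file per library, with 5 HTSeq tally lines. Cutadapt, Bowtie2 2.1.0, HTSeq 0.6.1 and the build ASM294v2 come from the list of tools per the submitters' processing notes; options for strand and multiple placement are not given in the sources used here. The members and lists were chosen with earlier results of these data known. IDs were looked up in RefSeq ASM294v3 for names and neighbours only: 6706 of 6878 matched directly, 16 through an older ID and 156 not. Tally lines stayed out of library sizes; aligned reads are assigned reads plus those tallied as without feature, ambiguous, multiply placed or of low mapping quality.

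The test on counts was that of edgeR 4.0.16 under R 4.3.3 (TMM, filterByExpr with a minimum count of 10, robust quasi-likelihood fit on group, Benjamini-Hochberg over 1716 features, threshold 0.05). SE is the log2 fold change over the square root of F. DESeq2 1.42.0 was an alternative. The fit was tested on simulated data. Shares and ratios were compared by exact permutation. Reads carry no molecular identifiers, so intervals cover counting error only. No 2 libraries agreed within sampling noise (chi-square per degree of freedom of at least 4.57).

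The family list joined RefSeq products naming MFS with fixed symbols; 1 symbol was not found, and car1 matched an arginase gene, which was not tested. Named were the 2 genes, the 5 RNAs, the 10 highest features of either group, the 8 most abundant and all called list genes up to 6 a direction (ght2, the seventh rise, is among the most abundant), 3 neighbours a side, and 5 most alike features per gene. Other genes in the text, such as mfs3, sut1, fnx1, SPAC2G11.09, gld1, sum2 and tlh2, were named after their values were seen.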

Additional observations from a re-analysis of the deposited data

How the results depend on the processing

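The log2 fold change of SPBC530.02 (-0.11) turned positive with library totals (0.56), aligned reads (3.13), no filter (0.32) and DESeq2 (0.089), and lay between -0.53 and 0.57 with single libraries left out, positive without 0h replicate 1 (0.57) and 24h replicate 2 (0.37). That of mfs2 (2.38) stayed positive in every alternative run and passed with library totals (3.01), aligned reads (5.51), no filter (2.77) and DESeq2 (2.56), with adjusted p from 1.97e-08 to 0.224 over all alternatives and 1.76 to 2.88 without each library. Calls over all features (224 higher, 220 lower) were 568 and 95 with library totals, 1611 and 4 with aligned reads, 479 and 337 with no filter, and 100 and 76 with a minimum count of 30. Without each library they ran from 110 to 204 (110 without 0h replicate 2, 139 without 0h replicate 3) and 147 to 235. In the family list, calls were 7 higher and 2 lower of 16 tested, where 13.1 and 12.8% of all 1716 tested features were called. These family calls were 15 and 0 with aligned reads, 3 and 0 at a minimum count of 30, and 10 and 0 with library totals. Without each library they ran from 2 to 6 and from 1 to 2. When all transporter annotations were read instead, a list added after the data were seen, calls numbered 40 and 9 of 104 tested. Among neighbours (1 and 1) they were 3 and 0 with aligned reads, 0 and 0 at a minimum count of 30, and 0 higher with DESeq2, from 0 to 1 without each library. Single genes also turned sign with aligned reads (vht1 2.08, str1 1.46, sut1 2.58, mfs3 3.48, gyp1 3.24, toe4 3.12, SPAC11D3.06 0.53), with library totals (mfs3 0.53, gyp1 0.33, toe4 0.44), with no filter (mfs3 0.11, toe4 0.11) or without 1 library (mfs3 from -0.49 to 0.40, fnx1 from -0.45 to 1.30, toe4 from -0.69 to 0.21). The fall of the 5 RNAs counted 2 with aligned reads and 3 to 5 without each library.

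The log2 difference in share, 0.41 for SPBC530.02, 2.70 for mfs2 and -4.30 for the 5 RNAs per assigned read, was 3.10, 5.40 and -1.60 per aligned read and 2.60, 4.89 and -2.11 per uniquely placed read. With the 7 features out of the denominator it was -0.24, 2.05 and -4.95, so that SPBC530.02 changed sign. Without 24h replicate 2 it was 1.16, 3.49 and -3.49, and with reads pooled over a group 0.96, 3.39 and -3.72. SPBC530.02 lay between 0.01 and 1.16 with single libraries left out. Same-numbered libraries deviated together weakly (r = 0.01, 0.11 and 0.13), and differently numbered ones had r from -0.12 to 0.02. Whether the numbers pair the libraries cannot be told from such weak values, and the main fit did not pair them. With the replicate block mfs2 was at 2.00 (adjusted p = 0.0985, edgeR), calls were 279 higher and 271 lower, and family falls 1. Depth of 48040 assigned reads in the shallowest library limits low-count neighbours and list genes most.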
